A study of Homo sapiens with 2 samples.

Results

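A small set of untreated breast cancer cells carried RNA for S100A9, a gene that nearly every cell of the same line expressed after cytokine treatment. The set was defined as the cells of the vehicle library with 1 or more unique molecular identifiers (UMIs, each counting 1 captured RNA molecule) of S100A9. They were chosen by that count alone. The set held 125 of the 2822 vehicle cells and of the 5985 cells in the whole series, or 4.43% of the vehicle cells (exact 95% interval 3.70 to 5.25%). These S100A9-positive cells were compared across genes with the 2697 vehicle cells without a UMI of S100A9. Because S100A9 chose the cells, its own values are a description and it was left out of every ranking.

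The cells were MDA-MB-453, a long-established line of human breast carcinoma that the labels call triple-negative and wild type (WT). Cells received either water as vehicle or IL1β together with TNFα, at a concentration of 10 ng/ml, both for 24 hours. Each condition was 1 droplet library of transcript 3′ ends. Cells of 1 culture are not replicates, so no test was made and the text holds no p-values. Intervals are exact, at 95%, and reflect the counting of molecules alone. Levels are UMIs of a gene per 1000000 UMIs of the summed cells (CPM), and each log2 ratio compares the CPM of S100A9-positive cells with that of S100A9-negative vehicle cells.

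S100A9 and its partner S100A8 are small calcium-binding proteins that pair to form calprotectin, an antimicrobial protein complex that sequesters zinc and manganese. Neutrophils and monocytes hold large amounts of it, and epithelial cells such as keratinocytes make it during inflammation. NF-κB, STAT3 and C/EBP factors are known regulators of both genes, and IL1β and TNFα are strong activators of NF-κB.

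Both genes lie in the S100 cluster on chromosome 1 (GRCh38), S100A9 (ENSG00000163220) at chr1:153357854-153361023 on the plus strand and S100A8 (ENSG00000143546) at chr1:153390032-153391073 on the minus strand. Their upstream sequences, from RefSeq on GRCh38.p14, are shown because S100A9 defined the set and S100A8 ranked first in it. For S100A9 the 250 bases before the start of transcription (chr1:153357604-153357853, plus strand) are given, and for S100A8, which has 3 start sites in that table, only the 30 bases before the main start (chr1:153391074-153391103, minus strand). Capitals mark the letters TATAAA of a TATA box.
S100A9: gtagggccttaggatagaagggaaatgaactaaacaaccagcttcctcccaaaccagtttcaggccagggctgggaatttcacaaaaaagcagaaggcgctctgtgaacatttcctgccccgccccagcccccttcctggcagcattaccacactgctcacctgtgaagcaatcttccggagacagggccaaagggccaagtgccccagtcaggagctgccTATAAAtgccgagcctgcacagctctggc
S100A8: cTATAAAaaggagctgcctctcagccctgc
In both genes TATAAA lay 29 to 24 bases before the start. Of 35116 promoter windows of 250 bases, 10.7% held TATAAA on either strand. No match to the NF-κB consensus (in 5.21% of all windows), TGANTCA (AP-1, in 6.57%) or TTGCNNAA (C/EBP, in 9.05%) was found on either strand of the 250 bases before either start, which says only that these letters are not in this window.

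S100A9 was spread very unevenly over the vehicle cells. The 125 cells held 382 S100A9 UMIs, and 79 of them had exactly 1 UMI, 34 had 2 to 4 and 12 had 5 or more. Those 12 cells held 56.8% of all S100A9 UMIs. The highest cell had 109 UMIs, 28.5% of the total, and the next cells had 24, 20, 12 and 11. Had 382 UMIs been spread over cells by depth, 356 cells would have had at least 1. The other 577 genes with a vehicle total within 10% of that of S100A9 were found in 292 to 394 cells each, with a median of 349, and none of them was in as few cells as S100A9. Some genes outside that range were uneven too. LINC01133 had 57 UMIs in 9 S100A9-positive and 257 in 99 S100A9-negative cells, and TDO2 had 43 in 9 and 502 in 127. Cells just outside the rule had 0 UMIs and cells just inside had 1, so the boundary lies at the smallest count that can be seen.

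Against cytokine-treated cells, most of the set was low. S100A9 stood at 4714 CPM in the cytokine-treated library, where 99.3% of the 3163 cells had a UMI of it and the median cell had 55. Among the S100A9-positive vehicle cells, 46 reached the 5th percentile of treated cells (2 UMIs), 3 reached the 25th percentile (17 UMIs) and 1 was above the treated median. The plot of S100A9 per cell shows that the libraries met at low counts: 54 treated cells had 1 UMI and 23 had none. No cell type in the series is known to lack S100A9 RNA, so the share of cells that free RNA alone would give could not be measured, and its part in the cells with 1 UMI was not tested.

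**Figure D1:**
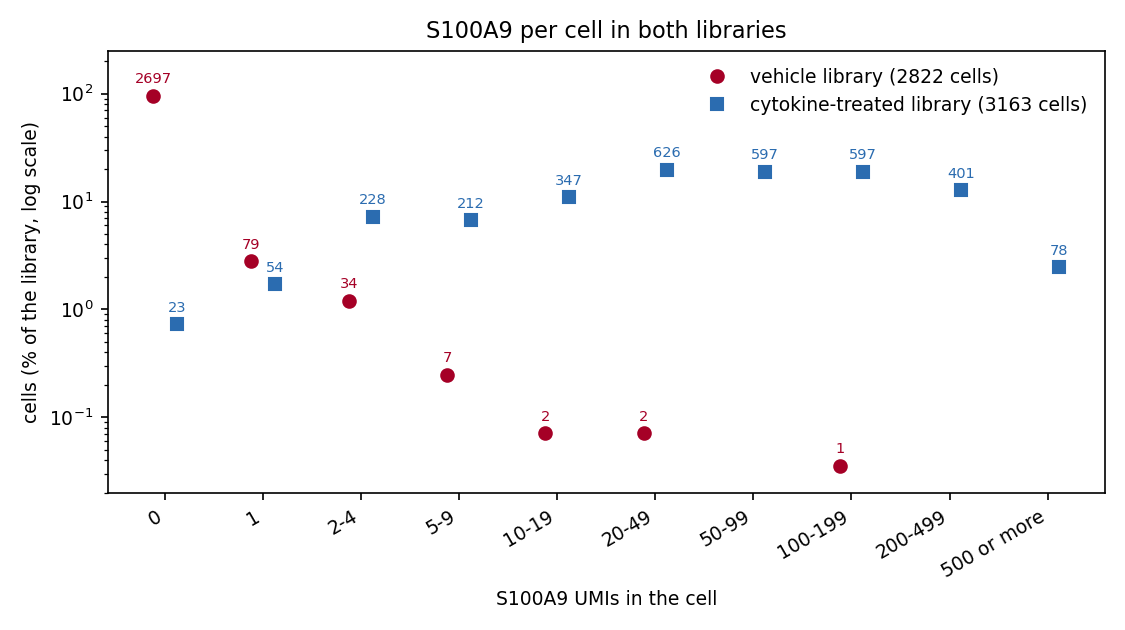
Percent of cells of each library (y axis, log scale) by S100A9 UMIs in the cell (x axis, in classes), with the number of cells beside each point and empty classes left out. The vehicle library has 2697 cells at 0 and 1 cell at 100 or more UMIs, while the cytokine-treated library peaks at 20 to 49 UMIs with 626 cells.

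Depth and quality differed little between the groups. S100A9-positive cells had a median of 20421 UMIs and 6.11% mitochondrial UMIs, and S100A9-negative cells 20228 UMIs and 6.29%. Both libraries shared 8 cell barcodes, none of which was among the S100A9-positive cells. The summed UMIs were 2654534 in the S100A9-positive and 55933462 in the S100A9-negative cells, and a gene at 0 in the first group was given a floor of 3 UMIs, or 1.13 CPM.

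S100A8 stood furthest above S100A9-negative cells, by the lower limit of its log2 ratio among genes with 20 or more vehicle UMIs. It had 56 UMIs in 23 of 125 S100A9-positive cells (18.4%, 12 to 26.3%) and 34 UMIs in 28 of 2697 S100A9-negative cells (1.04%, 0.691 to 1.5%). No S100A9-negative cell had more than 3 S100A8 UMIs, while the highest S100A9-positive cell had 17. The levels were 21.1 and 0.608 CPM, a log2 ratio of 5.12 (4.48 to 5.78). Without the highest cell it was 4.60. The share of cells with S100A8 was 8.86% at 1 S100A9 UMI, 26.5% at 2 to 4 and 58.3% at 5 or more, although the last share rests on 7 of 12 cells. After thinning every cell to 15000 UMIs, leaving out 10 S100A9-positive and 226 S100A9-negative cells with fewer, the shares were 14.8% (8.85 to 22.6%) and 0.809% (0.495 to 1.25%).

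Over all cells of a library, the vehicle library held 23.6 S100A8 UMIs per 100 S100A9 UMIs and the cytokine-treated library 72.7. In S100A9-positive vehicle cells the figure was 14.7, but there the S100A9 count had chosen the cells.

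Secreted genes that were abundant in treated cells took different levels in the set. A panel of 8 mediators and defence proteins had 0 UMIs in all vehicle cells, the S100A9-positive ones included, and was put together for that reason, so its zeros are a description. It held the cytokines LTB, TNF and IL32, the chemokine CXCL10, the acute phase proteins SAA1 and SERPINA3, the protease inhibitor PI3 and the siderophore-binding protein LCN2. In treated cells LTB was at 273 CPM, SAA1 at 175 and CXCL10, the lowest of the 8, at 9.10. Of the 16 listed secreted genes at 20 CPM or more in the treated library, 7 belong to that panel. Of the other 9, CXCL8, a neutrophil chemokine, had 0 UMIs in S100A9-positive and 16 in S100A9-negative cells, against 109 CPM in treated cells, and CFB, complement factor B, had 0 and 2 UMIs against 67.9 CPM. The remaining 7 were found in both vehicle groups. MIF, a constitutive cytokine, was at 6307 and 6277 CPM (0.01, -0.02 to 0.03), the chemokine CXCL16 at 16.6 and 17.1 CPM (-0.04, -0.51 to 0.39), the mucosal chemokine CCL28 at 13.9 and 16.3 CPM (-0.23, -0.74 to 0.24) and the death ligand TNFSF10 at 6.78 and 7.96 CPM (-0.23, -1.0 to 0.45). SLPI, RARRES1 and CCL2 are given further on.

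None of the 15 measured NF-κB subunits and feedback genes (those at 5 CPM or more over all vehicle cells) differed 2-fold, where 0.135% of all measured genes were 2-fold higher and 0.517% 2-fold lower. NFKBIA, the IκBα inhibitor and a direct NF-κB target, was at 98.3 CPM in S100A9-positive and 78.5 CPM in S100A9-negative cells (log2 ratio 0.33, 0.14 to 0.51), against 1069 CPM in treated cells. Its median per cell was 2, 1 and 21 UMIs in the same order. Also among the most abundant of the list, IER3 was at 146 and 126 CPM (0.21, 0.06 to 0.36). BIRC2 was at 23.4 and 25.5 CPM (-0.13, -0.52 to 0.24) and BCL3 at 20.3 and 22.5 CPM (-0.15, -0.57 to 0.25). Of the 15 genes, 6 were higher and 9 lower. ZC3H12A, SOD2, BIRC3 and NFKB1 were picked for description and not by abundance or rank. ZC3H12A, an RNase that restrains inflammatory transcripts, was at 10.5 and 5.94 CPM (0.83, 0.22 to 1.39). SOD2, a mitochondrial superoxide dismutase, was at 17.3 and 13 CPM (0.41, -0.05 to 0.84). BIRC3, an inhibitor of apoptosis and NF-κB target, had 1 and 23 UMIs (log2 ratio -0.13, -5.49 to 2.5), and stood at 39.1 CPM in treated cells. NFKB1, which encodes p105 and p50, was lower at 15.4 and 22.1 CPM (-0.52, -1.0 to -0.07).

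The median log2 ratio of these 15 genes was -0.09, beside -0.01 over all 8894 measured genes. The other 9 genes of the list were below 5 CPM. Interferon-stimulated genes had a median of -0.02 over 8 measured members, and MHC class I and peptide loading genes 0.09 over 10. Of these 10 MHC class I and peptide loading genes, 7 were higher and 3 lower (51.5% of all measured genes were lower). The interval was above 0 for 4 of them (6.31% of all measured genes) and below 0 for 0 (5.72%). ISG15, a ubiquitin-like interferon target, was at 93 and 119.9 CPM (-0.37, -0.55 to -0.18). Of its 6706 UMIs in S100A9-negative cells, however, 1229 were in 1 cell, and its ratio without that cell was not computed. BST2, the most abundant of the interferon-stimulated genes, was at 283 and 257 CPM (0.14, 0.03 to 0.24). Of the 8 measured interferon-stimulated genes, 4 were higher and 4 lower. HLA-B, a class I heavy chain chosen for description after its values were seen, had 0 UMIs in S100A9-positive and 110 in S100A9-negative cells. With the floor of 3 UMIs put in for the 0, HLA-B was 1.74-fold lower. The upper limit of its log2 ratio, -0.48, allows a smaller difference. HLA-C was at 142.8 and 122.5 CPM (0.22, 0.07 to 0.37). In the list of gp130, STAT3 and C/EBP genes, with a median of 0.09 over 7 members, CEBPB was at 45.6 and 39.5 CPM (0.21, -0.07 to 0.47) and STAT3 at 19.2 and 19.5 CPM (-0.02, -0.46 to 0.38).

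SLPI, a secreted protease inhibitor of epithelia, was well detected in vehicle cells. It was at 98.7 CPM in S100A9-positive and 62.7 CPM in S100A9-negative cells (0.65, 0.47 to 0.84), with UMIs in 89 of the 125 cells and no more than 10 in any of them. At 1 S100A9 UMI it already stood at 97.8 CPM, and in treated cells at 259 CPM. RARRES1, a retinoid-responsive membrane protein, was at 8.29 and 8.08 CPM (0.04, -0.65 to 0.65) against 134 CPM in treated cells.

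The enzymes of tryptophan breakdown, which the study follows, differed by less than 2-fold or rested on few molecules. TDO2, which opens the kynurenine pathway, had 43 UMIs in 9 S100A9-positive cells, of which 28 were in 1 cell. Its levels were 16.2 and 8.97 CPM (0.85, 0.37 to 1.30), and -0.65 (-1.50 to 0.08) without that cell. Outside the authors' cluster 0 the log2 ratio was -2.87 (-5.92 to -1.01), on 2 UMIs in S100A9-positive cells. Within cluster 0 it was 1.47 (0.89 to 2.02), but this includes the cell with 28 UMIs, which lies in that cluster. KMO, which hydroxylates kynurenine, was at 11.7 and 9.21 CPM (0.34, -0.23 to 0.87). KYNU, the kynureninase, was at 4.52 and 4.06 CPM (0.16, -0.82 to 0.99). IDO1, the alternative first enzyme, had 1 and 6 UMIs (1.81, -3.71 to 4.86). Over the 7 measured genes of the pathway list the median was 0.18. These took in the amino acid transporter genes SLC3A2 and SLC7A5 but not KYNU, which was below 5 CPM. The median was 0.56 within cluster 0 and -0.30 outside it. It was 0.02 without each gene's highest S100A9-positive cell and -0.01 at exactly 1 S100A9 UMI. CCL2, a monocyte chemokine, had 23 UMIs in 4 S100A9-positive cells, 17 of them in 1 cell, so its log2 ratio of 2.41 (1.69 to 3.09) was 0.49 (-1.0 to 1.66) without it.

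Across all genes the groups were close. Of 8894 measured genes, 12 (0.135%) stood 2-fold or more above their level in S100A9-negative cells, all of them with an interval above 0. In the other direction 46 (0.517%) stood 2-fold or more below, 43 (0.483%) with an interval below 0, and these 43 are the lower genes described here. Genes at 20 CPM or more gave 2 higher (0.0417% of 4801) and 2 lower (0.0417%): CRIP2 and ATP1B1 were higher, TFF1 and C1orf21 lower. The 12 higher genes had a median of 46 UMIs in S100A9-positive cells and the 43 lower genes a median of 8, so the lower ones rest on few molecules. Of the 12 higher genes, 8 kept a ratio of at least 2 without their own highest cell. Among the 268 listed genes that were measured, 1 was past this limit upward and 5 downward.

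LINC01133, a long non-coding RNA (chr1:159958035-159984750, plus strand), had the largest ratio of the 12, but passed the limit of 5 CPM only through its level in S100A9-positive cells. It had 57 UMIs in 9 S100A9-positive cells, with 17 in the highest, and stood at 21.5 against 4.59 CPM (2.22, 1.78 to 2.64). CDSN, corneodesmosin, an adhesion protein of cornified keratinocytes, was found in 28 cells with 9 UMIs in the highest, at 23 and 7.58 CPM (1.60, 1.19 to 1.99). ASS1, argininosuccinate synthase of arginine synthesis, was found in 33 cells with at most 5 UMIs, at 18.8 and 6.51 CPM (1.53, 1.08 to 1.96), and at 156 CPM in treated cells. KRT80, an epithelial keratin, was at 14.7 and 5.17 CPM (1.51, 0.99 to 1.99) in 17 cells. In the 79 cells with exactly 1 S100A9 UMI the log2 ratio was lower for CDSN (0.44, -0.36 to 1.13), KRT80 (0.36, -0.66 to 1.22) and LINC01133 (0.66, -0.31 to 1.49), with intervals across 0, and stood at 1.03 (0.34 to 1.65) for ASS1. CRIP2, a cysteine-rich LIM-domain protein, was found in 66 of the 125 cells, at 82.1 and 34.0 CPM (1.27, 1.06 to 1.47), and its log2 ratio in cells with exactly 1 S100A9 UMI was 0.94 (0.65 to 1.22).

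MGP, matrix Gla protein, an inhibitor of calcification, rested on few cells. It was at 39.2 and 13.6 CPM (log2 ratio 1.52, 1.21 to 1.82), but 50 of its 104 UMIs were in 1 cell, and without that cell the log2 ratio was 0.59 (0.17 to 0.99). The remaining 6 of the 12 are named here after their values were seen: EFNA3, an ephrin ligand, the transcription factor SP6, the nuclear envelope protein TMEM43, the actin-binding protein ENC1, the Na,K-ATPase beta subunit ATP1B1 and the planar polarity protein PRICKLE2. Their levels were between 2.02-fold and 2.46-fold higher. ATP1B1 was by far the most abundant of these, at 112 and 53.9 CPM.

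Below the 5 CPM limit, the ranking also named ANXA1 (annexin A1), the adrenergic receptor ADRA2A, FAM25A, CDC42EP3 (a CDC42 effector), BASP1, DOCK2 (a Rac exchange factor), MYLK (myosin light chain kinase) and PLXDC2, all with 26 or fewer UMIs in S100A9-positive cells. ANXA1 was at 8.66 and 1.68 CPM (2.37, 1.64 to 3.04). FAM25A had 6 UMIs in S100A9-positive and 15 in S100A9-negative cells. It passed the ranking's limit on vehicle UMIs only through its UMIs in S100A9-positive cells. Although DOCK2 had only 26 UMIs, they were in 24 cells (1.74, 1.08 to 2.34). BASP1 had 22 UMIs in 7 cells, 9 of them in 1.

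**Figure D2:**
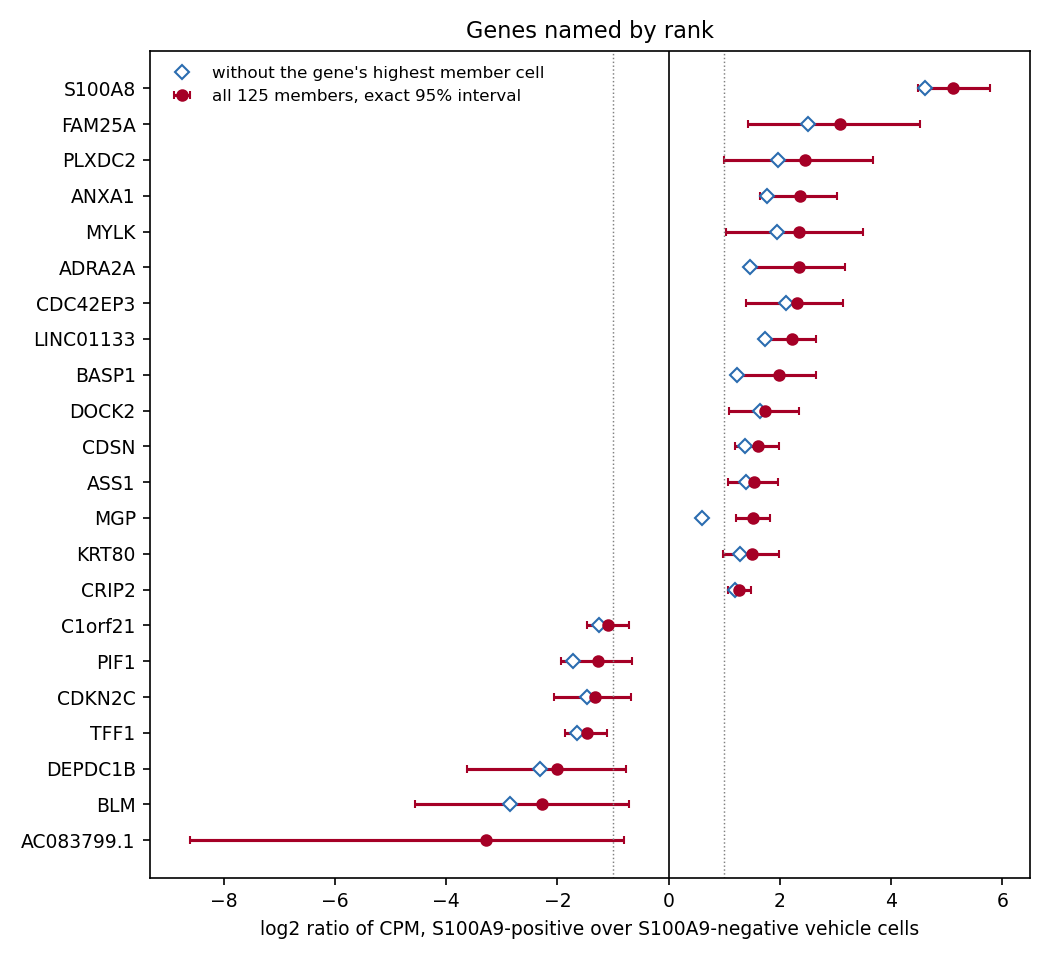
Log2 ratio of CPM between S100A9-positive and S100A9-negative vehicle cells (x axis) for the genes named by rank with a UMI in both groups (y axis). Red points show all 125 cells with exact 95% intervals for counting error, blue diamonds the ratio without the cell highest in that gene (none for AC083799.1, whose 1 UMI was in that cell), and dotted lines a 2-fold difference. S100A8 stands at 5.12, and MGP moves from 1.52 to 0.59.

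TFF1, a secreted trefoil peptide of mucous epithelia, was the most abundant gene lower in the set. It was at 22.6 CPM in S100A9-positive and 62.6 CPM in S100A9-negative cells (-1.47, -1.86 to -1.10). Its UMIs were very uneven among S100A9-negative cells, which reached 296 in 1 cell. The highest S100A9-positive cell had 7, and the 75 S100A9-negative cells (2.78%) above that count held 2027 of the 3503 UMIs of their group. Without those 75 cells, a cut set by the highest S100A9-positive cell, S100A9-negative cells stood at 27.2 CPM. At the same share, 3.48 such cells would have been among the S100A9-positive cells. The share of cells with any TFF1 was 25.6% and 32.3%. In treated cells TFF1 stood at 1037 CPM, above both vehicle groups.

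The other lower genes named by rank were less abundant. PIF1, a DNA helicase, was at 8.29 and 19.9 CPM (-1.26, -1.94 to -0.66), CDKN2C, which encodes the CDK inhibitor p18, at 7.16 and 17.9 CPM (-1.32, -2.06 to -0.67) and DEPDC1B, a mitotic protein, at 1.88 and 7.54 CPM (-2.0, -3.63 to -0.77). BLM, the Bloom syndrome helicase, had 3 UMIs in S100A9-positive cells (-2.28, -4.56 to -0.71). C1orf21 was at 23 and 48.7 CPM (-1.08, -1.47 to -0.72). GRK3, a receptor kinase, AC124016.1 and LACC1 had no UMI in S100A9-positive cells and were at least 2.71-fold, 2.52-fold and 2.37-fold lower against 3 UMIs over the group, and the upper limits of their log2 ratios were -1.12, -1.02 and -0.93. AC083799.1 had 1 UMI and 206 UMIs in the respective groups (-3.29, -8.60 to -0.80).

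Genes of the G2 and M phase list were mostly lower. Of its 52 genes, all measured, 49 were lower in S100A9-positive cells (51.5% of all measured genes were), 28 of them with the interval below 0 (5.72% of all measured genes), and 2 (GAS2L3 and CDCA2) were past 2-fold. The median log2 ratio was -0.38. TOP2A, the topoisomerase of dividing cells, was at 37.7 and 62.4 CPM (-0.73, -1.03 to -0.44), and UBE2C, a mitotic ubiquitin-conjugating enzyme, at 87.0 and 139 CPM (-0.68, -0.87 to -0.49). TOP2A and UBE2C were picked for description and were not named by abundance or rank, and both lay below the list median. CENPF, a kinetochore protein, was at 136 and 178 CPM (-0.39, -0.55 to -0.24). HMGB2, a chromatin protein high in cycling cells, was at 364 and 428 CPM (-0.23, -0.33 to -0.14). Also among the most abundant of the list, TUBB4B was at 389 and 399 CPM (-0.04, -0.13 to 0.05). CKS1B was at 231 and 282 CPM (-0.29, -0.41 to -0.17). The S phase list had a median of -0.16, with 40 of 42 genes lower and BLM alone past 2-fold. RRM2, the ribonucleotide reductase subunit, was at 110 and 138 CPM (-0.33, -0.51 to -0.16).

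The deposited phase calls put more S100A9-positive cells in G1, with intervals that overlapped. By them, 58 of 125 S100A9-positive cells (46.4%, 37.4 to 55.5%) and 36.1% of S100A9-negative cells (34.3 to 38.0%) were in G1. S phase held 39.2% and 45.4%, and G2/M 14.4% and 18.5%. By class, G1 held 49.4% of cells at 1 S100A9 UMI, 32.4% (17.4 to 50.5%) at 2 to 4 and 8 of the 12 cells at 5 or more. Called on counts thinned to 15000 UMIs, G1 held 33.9% (25.3 to 43.3%) and 26.5% (24.8 to 28.3%). Within G1 cells alone the median of the G2 and M list was -0.20.

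The other lists with 4 or more measured genes had medians within 0.22 of 0. In the list of simple epithelial keratins and trefoil genes (0.22 over 13 measured), KRT8, KRT18 and KRT19, the keratins of simple epithelia, had log2 ratios of 0.38, 0.22 and 0.42, and AGR2, a secretory disulfide isomerase, of -0.10. The median of this list was 0.03 at exactly 1 S100A9 UMI and 0.08 without the 12 cells with 5 or more. Its summed level was 3650 CPM without S100A9, 3698 at 1 UMI and 7780 at 5 or more. The squamous and stress keratinocyte list had a median of 0.16 over 9, with the cystatin CSTB at 379 and 376 CPM (0.01, -0.08 to 0.10). That median was -0.09 at exactly 1 S100A9 UMI and 0.07 without the 12 cells. The hypoxia and glycolysis list had a median of 0.11 over 21, with 7 intervals above 0 (6.31% of all measured genes had one), including LDHA, lactate dehydrogenase A (0.16, 0.09 to 0.23). Medians were 0.06 over 17 AP-1 and immediate early genes, 0.05 over 18 unfolded protein response and ATF4 genes and 0.05 over 12 cell cycle arrest and p53 target genes. They were 0.00 over 10 androgen receptor and apocrine genes, -0.06 over 16 iron, redox and metallothionein genes and -0.14 over 4 cytokine and chemokine genes. The acute phase and antimicrobial list had only 2 measured genes, SLPI and RARRES1.

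**Figure D3:**
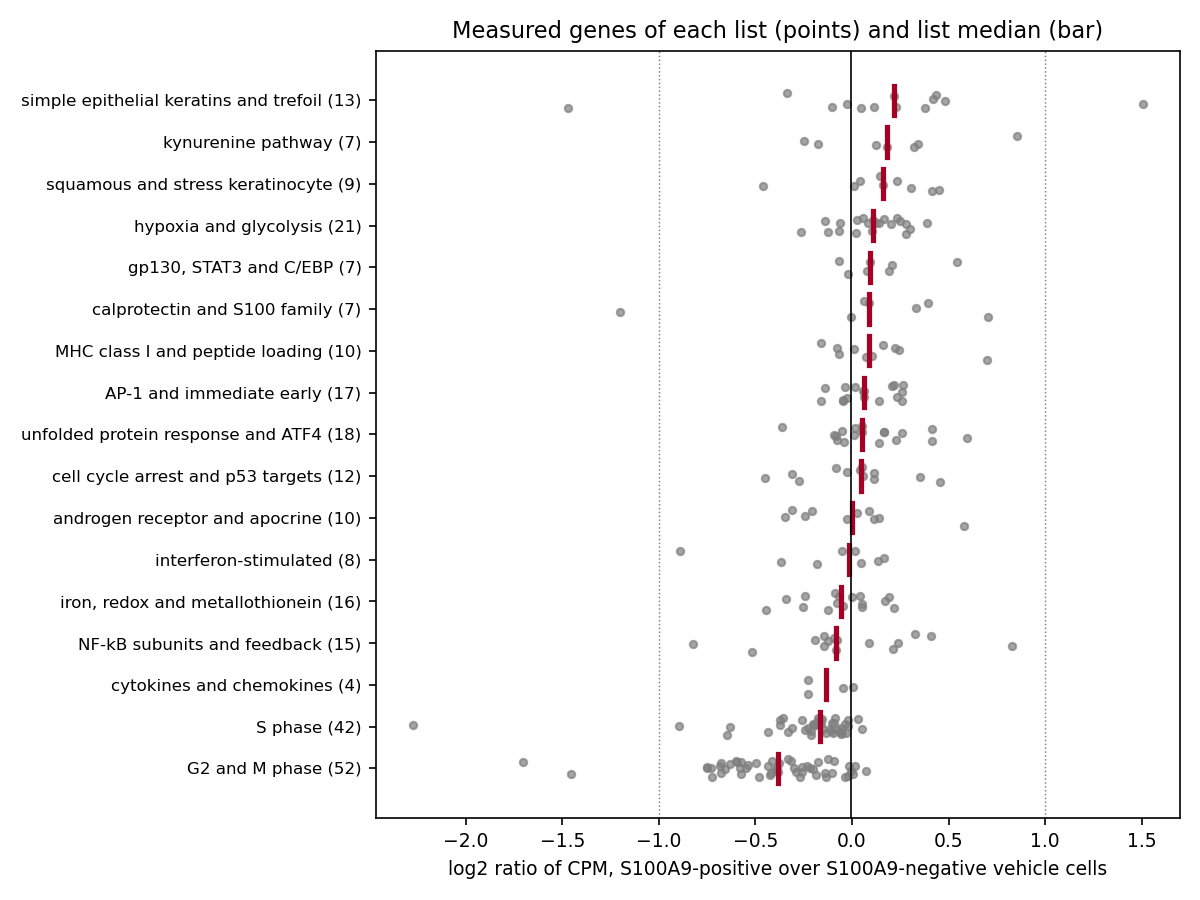
Log2 ratio of CPM between S100A9-positive and S100A9-negative vehicle cells (x axis) for each measured gene (grey points) of the lists with 4 or more measured genes (y axis, number in brackets), with the list median as a red bar. The black line is the median of all measured genes and dotted lines mark 2-fold. The G2 and M phase list has the lowest median, -0.38, and the S phase list follows at -0.16.

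Among the S100 genes besides S100A8, 5 of the 7 measured members were higher and 2 lower, with a median of 0.09. S100A10, the annexin A2 partner, was at 381 and 234 CPM (0.71, 0.61 to 0.80), S100A11 at 1671 and 1274 CPM (0.39, 0.35 to 0.44) and S100A6 at 245 and 195 CPM (0.33, 0.21 to 0.44). For S100A6 the log2 ratio was 0.10 (-0.02 to 0.23) without its highest cell. S100A16, S100A14 and S100A13 had log2 ratios of -0.00, 0.09 and 0.06. S100P was past 2-fold downward at 5.65 and 13 CPM (-1.20, -2.05 to -0.47), but had UMIs in 4 S100A9-positive cells only. S100A12, another neutrophil calgranulin of the same gene cluster, was not found in vehicle cells and stood at 8.05 CPM in treated cells.

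Some genes had levels ordered by the number of S100A9 UMIs in the cell. CD24, PEG10, MKI67, KRT7, ATP1B1, S100A10 and S100A6 were picked for this description after their values were seen. CD24, a cell surface glycoprotein, was at 251 CPM in cells without S100A9, 360 at 1 UMI, 513 at 2 to 4 and 825 at 5 or more, and the 4 intervals did not overlap, though the last level rests on 4 cells described further on. Its median per cell was 8 UMIs in S100A9-positive and 5 in S100A9-negative cells, and the treated library stood at 770 CPM. CRIP2 was at 34.0, 65.2, 98.4 and 146 CPM in the same order, with 53.7 CPM in treated cells, and its last level rests on the same 4 cells. S100A8 was at 0.608, 9.06, 18.6 and 110 CPM.

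PEG10, an imprinted gene derived from a retrotransposon, had the opposite order, at 711, 552, 415 and 199 CPM, with 275 CPM in treated cells. Its median was 7 UMIs in S100A9-positive and 10 in S100A9-negative cells. MKI67, the proliferation marker Ki-67, was at 135, 114, 91.7 and 73.2 CPM, against 11.7 CPM in treated cells, and the intervals of the 3 S100A9-positive classes overlapped. TFF1 stood below its S100A9-negative level in every class, at 24.2, 21.3 and 16.3 CPM. That S100A9-negative level was 27.2 CPM without the 75 cells described above.

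**Figure D4:**
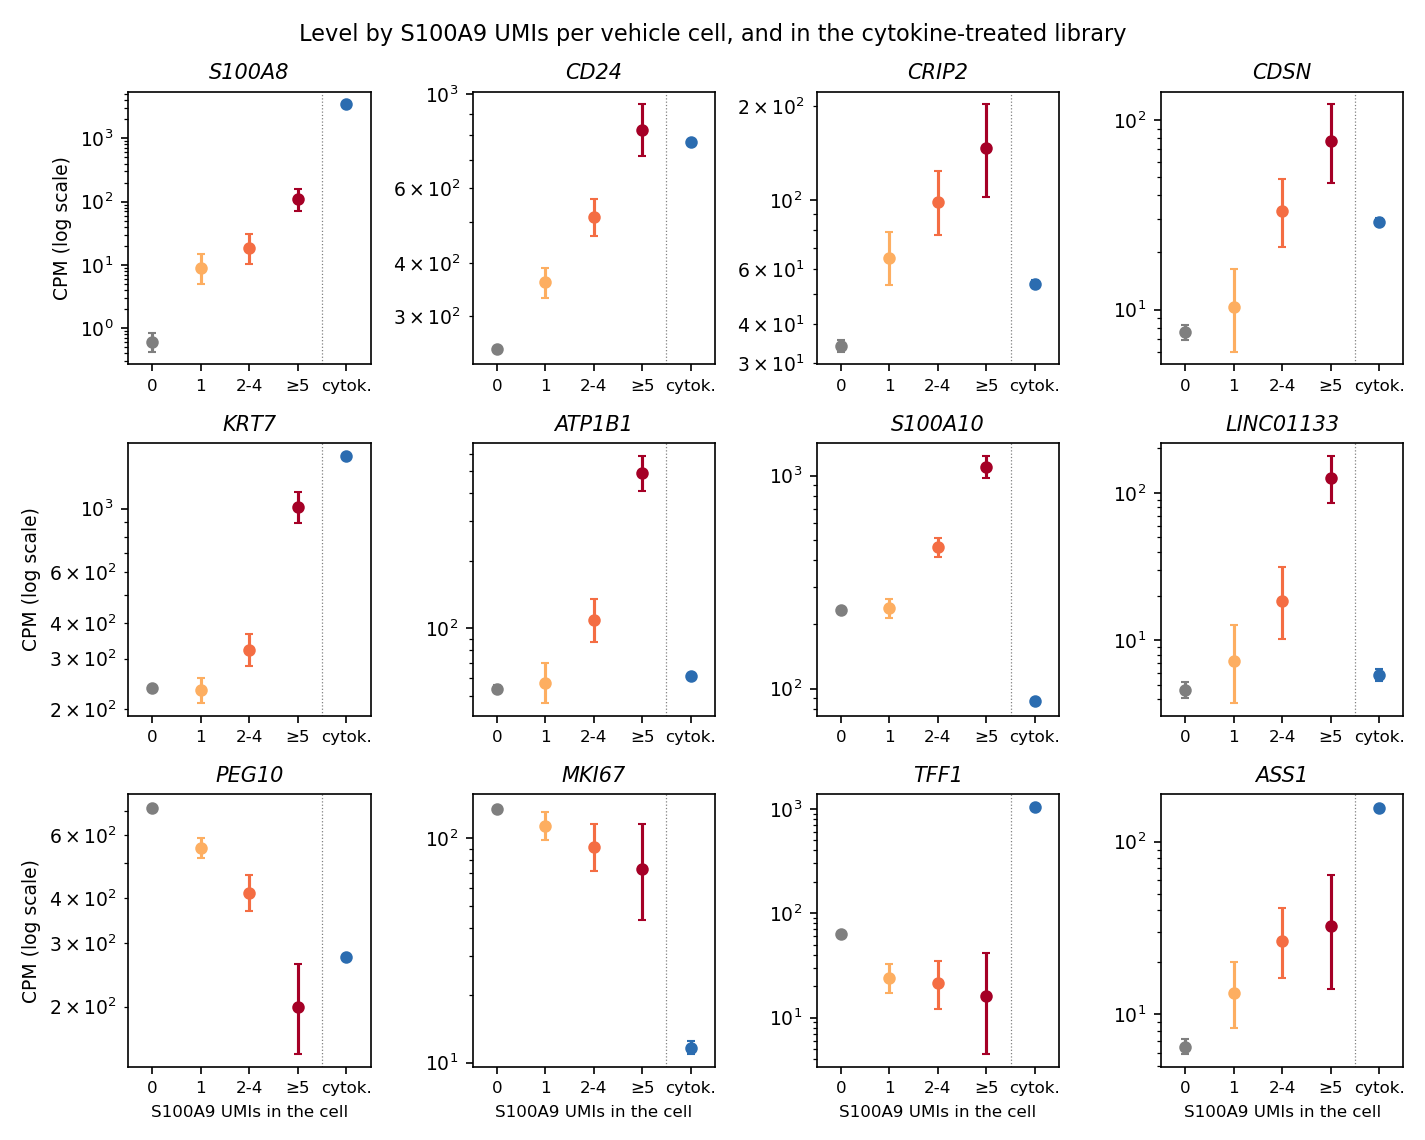
Level in CPM (y axes, log scale, each with its own range) of 12 genes in vehicle cells with 0, 1, 2 to 4 and 5 or more S100A9 UMIs (2697, 79, 34 and 12 cells) and in the 3163 cytokine-treated cells (blue, right of the dotted line). Points are summed UMIs per 1000000 and bars exact Poisson 95% intervals for counting error. From 0 to 5 or more UMIs, CD24 stands at 251, 360, 513 and 825 CPM and PEG10 at 711, 552, 415 and 199 CPM.

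KRT7, ATP1B1 and S100A10 were close to their S100A9-negative level at 1 UMI and highest at 5 or more. KRT7, a simple epithelial keratin, was at 236 CPM without S100A9, 232 at 1 UMI, 322 at 2 to 4 and 1012 at 5 or more. S100A10 was at 234, 239, 460 and 1102 CPM, with 87.6 CPM in treated cells, below every vehicle class. ATP1B1 was at 53.9, 57.4, 109 and 492 CPM.

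The 12 cells with 5 or more S100A9 UMIs fell into unlike sets, as seen from their UMIs. In 4 of them S100A6 was at 10 or more UMIs, a limit chosen after the values were seen. These 4 cells, with 109, 24, 12 and 5 S100A9 UMIs, had 19 to 145 UMIs of S100A10, 25 to 102 of KRT7, 21 to 36 of ATP1B1, 3 to 17 of LINC01133, 2 to 25 of MGP and 1 to 6 of PEG10. The other 8 cells had 0 to 14 UMIs of S100A10, 2 to 9 of KRT7, 0 to 2 of ATP1B1 and none of LINC01133. Their PEG10, at 2 to 10 UMIs, overlapped that of the 4 cells. All 4 were called G1, with 3 in cluster 3 and 1 in cluster 1, whereas 6 of the other 8 were in cluster 0 and 2 in cluster 2. For CD24, CRIP2, S100A10, KRT7 and ATP1B1 the order of the levels at 5 or more S100A9 UMIs depended on these 4 cells. In the other 8 cells CD24 was at 446 CPM (349 to 561), below the 513 CPM at 2 to 4 UMIs. CRIP2 was at 37.2 CPM (13.6 to 80.9) in those 8 cells, S100A10 at 142 (90.3 to 214), KRT7 at 229 (161 to 316) and ATP1B1 at 37.2 (13.6 to 80.9). S100A8 and PEG10 kept their order in the other 8 cells, at 31.0 CPM (10.1 to 72.3) and 229 CPM (161 to 316). The S100A8 interval took in its level at 2 to 4 UMIs.

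These 4 cells held 54.4% of the LINC01133 UMIs of all S100A9-positive cells, 38.6% of those of ATP1B1, 24.5% of S100A10 and 24.2% of KRT7. They held 39.3% of those of S100A8, but 11.1% of CD24 and 13.8% of CRIP2. Without these 4 cells the log2 ratio of S100A6, the gene that set them apart, was -0.21 (-0.35 to -0.07). Without the 12 cells, an alternative chosen after seeing the data, the log2 ratio was 0.45 (0.22 to 0.67) for ATP1B1, 0.40 (0.29 to 0.50) for S100A10, 0.14 (0.02 to 0.25) for KRT7 and 1.23 (0.59 to 1.82) for LINC01133. It was 4.31 for S100A8, 1.42 for ASS1, 1.20 for CDSN, 1.15 for CRIP2, 0.70 for CD24 and -0.48 for PEG10.

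The set was concentrated in the authors' cluster 0. That cluster held 43 of the 125 S100A9-positive cells (34.4%, 26.1 to 43.4%) and 8.90% of S100A9-negative cells (7.85 to 10.0%). The clusters span both libraries, and cluster 0 held 1100 of the 3163 cytokine-treated cells (34.8%, 33.1 to 36.5%), more than any other cluster. Among all vehicle cells it was the smallest cluster, at 10.0%. Of its 283 vehicle cells, 15.2% (11.2 to 19.9%) were S100A9-positive, against 1.70 to 3.94% in the other 5 clusters. Its vehicle cells had a median of 20277 UMIs, within the 17651 to 22743 of the other clusters. Cluster 0 held 22.8% of the cells with 1 S100A9 UMI, 55.9% of those with 2 to 4 and 6 of the 12 with 5 or more. The clustering method is not given in the sources used here, and S100A9 itself may have entered them. Cluster 3 had 14 S100A9-positive cells, but these held 155 UMIs of S100A9 because the 109-UMI cell was among them.

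**Figure D5:**
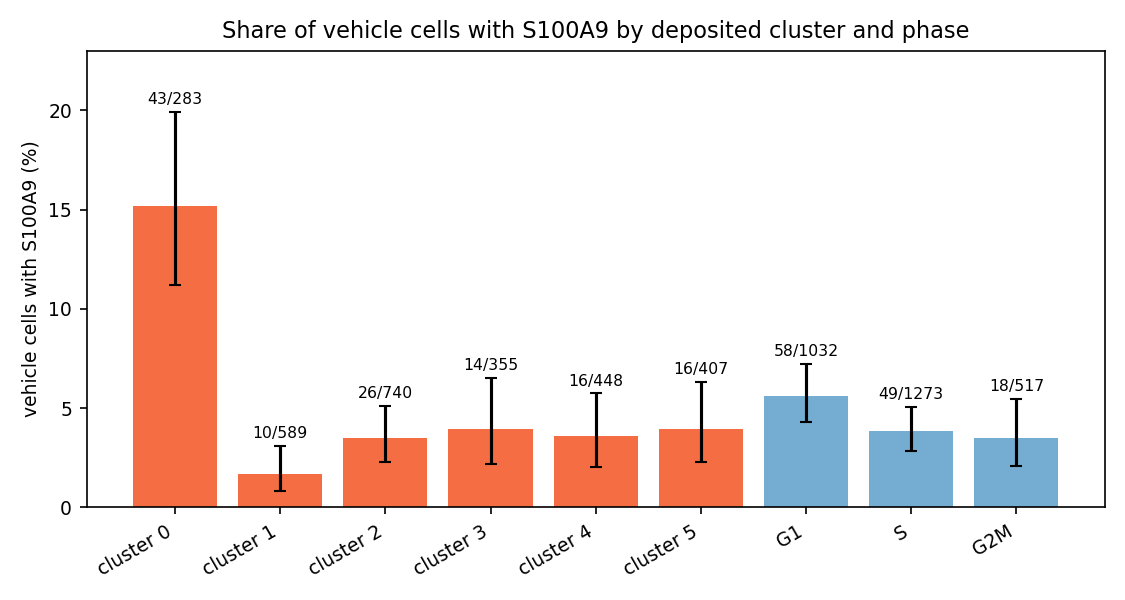
Percent of vehicle cells with 1 or more S100A9 UMIs (y axis) in each deposited cluster (orange) and phase (blue), with exact 95% intervals for counting error and the number of cells above each bar. Cluster 0 stands at 15.2%, and the other clusters lie between 1.70 and 3.94%.

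Within and outside cluster 0, an alternative chosen after seeing the data, S100A8, CD24, CRIP2, CDSN and PEG10 had the same direction. S100A8 had a log2 ratio of 3.64 (2.56 to 4.82) within cluster 0 and 5.31 (4.49 to 6.15) outside it, CD24 of 0.69 and 0.75, CRIP2 of 1.59 and 1.31, CDSN of 1.63 and 1.56 and PEG10 of -0.23 and -0.49. SLPI had 1.55 (1.15 to 1.94) within and 0.61 (0.38 to 0.82) outside. The difference between these ratios was not tested. The G2 and M phase list had a median of -0.81 within cluster 0 and -0.12 outside, and MKI67 a log2 ratio of -0.90 (-1.47 to -0.37) and -0.06 (-0.25 to 0.12).

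Markers of myeloid and lymphoid cells were at or near 0 in the set, and epithelial markers were general. KRT19 was found in all 125 S100A9-positive cells, KRT18 in 124, KRT8 in 123 and EPCAM in 119. Of 8 myeloid markers in the table, 3 were not found in any vehicle cell and 5 not in S100A9-positive cells (SPI1, LYZ, ITGAM, LST1 and S100A12). The list summed to 4 UMIs (1.51 CPM) in S100A9-positive and 52 UMIs (0.930 CPM) in S100A9-negative cells. The 2 lymphoid markers summed to 1 and 22 UMIs (0.377 and 0.393 CPM). The 4 basal and myoepithelial markers summed to 12 and 112 UMIs (4.52 and 2.0 CPM, log2 ratio 1.17, 0.18 to 2.04), of which MYLK gave 8 in S100A9-positive cells and ACTA2 none. COL1A1, the only measured gene of the fibroblast and endothelial list, was not near 0, at 21.5 and 20.9 CPM (0.04, -0.37 to 0.42), with UMIs in 45 S100A9-positive cells.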

How the data were processed

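The deposited counts are UMIs of each gene in each cell, not normalized. Per the submitters' processing notes they were made on GRCh38 with Cell Ranger 3.1.0 and handled in Seurat 4.0.4. The authors also deposited the percent of mitochondrial UMIs, a phase call and a cluster number for each cell. Cells that they removed were not analysed here. The matrix held 16251 genes and 5985 cells, and cells were assigned to libraries by the deposited cell table, whose UMI and gene numbers equalled those summed from the matrix. The vehicle library summed to 58587996 UMIs and the cytokine-treated library to 69592446 UMIs, with medians of 20249 and 21508 UMIs per cell.

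UMIs were summed over S100A9-positive and over S100A9-negative vehicle cells and scaled to their total. Log2 ratios have exact intervals from the conditional binomial distribution, CPM exact Poisson and shares exact Clopper-Pearson intervals. These leave out the spread between cells and cultures. Genes at 5 CPM or more over all vehicle cells counted as measured. A gene was counted as higher or lower at 2-fold or more with its interval on the same side. The floor for a gene at 0 was 3 UMIs over the group.

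Named genes were those the study names (S100A8, CCL2, TDO2, KMO, KYNU and IDO1), the panel of 8 genes at 0 in the vehicle library, the 15 genes with the highest lower limit and the 10 with the lowest upper limit of the log2 ratio among genes with 20 or more vehicle UMIs (the highest also in 5 or more S100A9-positive cells), and up to 4 of the most abundant genes of each of 24 lists. Further genes in the text, among them ZC3H12A, SOD2, BIRC3, NFKB1, HLA-C, TOP2A and UBE2C, were picked outside these rules. The members, lists and panel were chosen with earlier results of these data known. No clustering was done and no doublets were removed, since the material is 1 cell line.

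Alternatives were membership at 2 or more or at exactly 1 UMI or after thinning to 15000 UMIs, scaling by TMM (edgeR 4.0.16), by DESeq2 1.42.0 size factors or without ribosomal and mitochondrial genes, equal weight per cell, G1 cells alone, no shared barcodes, under 10% mitochondrial UMIs, without the highest S100A9 cell or each gene's highest cell, other limits on level, thinning to 7500 UMIs and phases called with scanpy 1.11.5 on thinned counts. The script was tested on simulated data. Promoter windows came from RefSeq on GRCh38.p14 and gene positions from GENCODE on GRCh38.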

Additional observations from a re-analysis of the deposited data

How the results depend on the processing

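No paired analysis was possible because the labels give 1 sample per condition. Of 338 comparisons of a value with its alternatives, 262 stayed within the counting interval of the value or, for a count of genes, within 1.5 times it, 73 moved further and 3 changed sign. The counts of genes at least 2-fold higher and lower, 12 and 43 as reported, were 79 and 123 with 2 or more S100A9 UMIs, 98 and 105 within cluster 0, 142 and 69 without a limit on level and 2 and 2 at 20 CPM. The higher genes numbered 20 with membership after thinning and 50 in G1 cells, and the lower genes 88 without each gene's highest cell. Listed genes, 1 higher and 5 lower as reported, were 10 and 8 with 2 or more UMIs and 6 and 17 within cluster 0. The listed higher genes were 2 after thinning, 2 in G1 cells and 0 without the 12 cells with 5 or more S100A9 UMIs, and the listed lower genes 8 without each gene's highest cell. The cause of these shifts was not tested. The share in G1 was 33.9% when called on thinned counts. The sign changed for PIF1 in G1 cells (1.75, -1.48 to 3.98), and within cluster 0 for MGP (-2.07, -7.43 to 0.55) and C1orf21 (0.52, -0.81 to 1.67), where the cause was not tested. Within cluster 0 and without the 12 cells are alternatives chosen after seeing the data.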
